A study of Mus musculus with 6 samples.

Results

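Notch signalling was examined here through 10 genes in plasmacytoid dendritic cells (pDCs), the dendritic cell type best known for secreting type I interferon. The genes were the 4 Notch receptors (Notch1, Notch2, Notch3 and Notch4), the DNA-binding partner Rbpj, the coactivator Maml2, the transcriptional target Hes1, the ubiquitin ligases Dtx1 and Dtx4, and Esam, a surface molecule of Notch2-dependent splenic dendritic cells. They were chosen by name, with earlier results of these data known, and all 10 were measured among 19937 genes. Per the labels, B220+ SiglecH+ cells were taken from the spleens of wild-type (WT) mice and of mice deficient in the transcription factor IRF8 (KO), with 3 samples of each genotype. The allele of the deficiency and the strain and age of the mice are not stated in the labels. The labels also leave unstated whether the samples of a genotype were separate animals, so p-values here reflect array-to-array spread that could be technical. Expression was measured on Affymetrix arrays as log2 levels, where a difference of 1 unit is a doubling of signal.

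Notch receptors are cell-surface proteins that are cut when they bind a ligand on a neighbouring cell. The last cut, by gamma-secretase, frees the intracellular domain, which enters the nucleus and joins RBPJ and a Mastermind-like (MAML) coactivator to switch on target genes such as those of the HES and HEY repressors. In the spleen, Notch2 is known for its role in marginal zone B cells and in the ESAM-high subset of conventional dendritic cells. Deltex proteins, encoded by Dtx genes, are ubiquitin ligases that bind the receptors, and Dtx1 is itself a classical Notch target in lymphocytes.

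Siglech, a gate gene of the sort, had high levels in every array, while the targeted gene did not separate the genotypes. Siglech ranged from 12.52 to 12.75 in WT and from 12.18 to 12.34 in KO, so every KO array lay below every WT array. The difference was -0.35 and was not called (limma adjusted p = 0.169). Irf8 ranged from 9.97 to 10.24 in the WT arrays and from 10.15 to 10.79 in the KO arrays (limma adjusted p = 0.425). Which part of Irf8 was altered is not stated, and a probe set that lies elsewhere in the gene is no check of the genotype. Every direction given here therefore follows the genotype labels. The array medians lay within 5.53 and 5.56, so a shift common to all transcripts would not show. Correlations between arrays of one genotype ran from 0.977 to 0.993, and KO replicate 1 carried the highest levels of neutrophil genes, whose values stand beside the results for Hes1. The number of arrays limits the precision.

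Of the 10 Notch genes, Hes1 was higher and Maml2, on its brighter probe set, lower in KO. The other 8 passed the threshold in neither direction. The test was limma across all genes with a Benjamini-Hochberg adjusted p of 0.05 as the threshold. Over all genes it called 4.38%, with 2.30% higher and 2.08% lower in KO. The median difference of the 10 genes, KO minus WT, was 0.00 log2 units, beside -0.04 over all genes. The groups did not overlap for 4 of the 10, Notch1, Rbpj, Hes1 and Maml2, and for 20.4% of all genes.

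**Figure D1:**
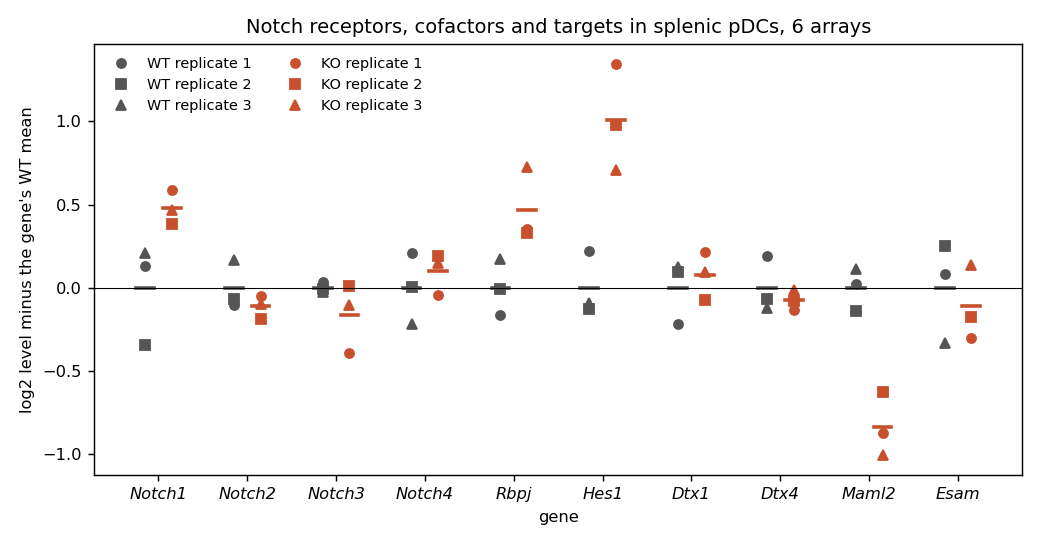
Log2 level of each of the 10 Notch genes in each of the 6 arrays, drawn as the difference from the mean of the 3 WT arrays for that gene (vertical axis, log2 units; grey WT, orange KO; symbol shape gives the replicate number; short bars are group means). The KO points of Hes1, Notch1 and Rbpj lie above their WT points and those of Maml2 below, while the groups overlap for the other 6 genes.

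Maml2, the coactivator that bridges the Notch intracellular domain and the transcription machinery, has 2 annotated transcription starts in RefSeq (build GRCm38.p6) and 2 probe sets, as does Rbpj. Both Maml2 start windows, from 250 bases before to 50 bases after the start, are shown because its probe sets differed in whether they were called, as given further on. The sources used here do not tie a probe set to a start. Capitals mark the RBPJ core motif TGGGAA, which the second window holds on the reverse strand, so that it reads TTCCCA here. The windows lie at chr9:13297708-13298007 and chr9:13662210-13662509, both on the plus strand, and are read 5′ to 3′.
Maml2 start 1: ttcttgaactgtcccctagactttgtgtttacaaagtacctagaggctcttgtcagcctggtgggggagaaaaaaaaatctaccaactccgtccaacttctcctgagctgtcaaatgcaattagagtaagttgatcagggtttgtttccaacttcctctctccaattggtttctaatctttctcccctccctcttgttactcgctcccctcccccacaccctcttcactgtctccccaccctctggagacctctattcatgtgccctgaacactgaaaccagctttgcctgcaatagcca
Maml2 start 2: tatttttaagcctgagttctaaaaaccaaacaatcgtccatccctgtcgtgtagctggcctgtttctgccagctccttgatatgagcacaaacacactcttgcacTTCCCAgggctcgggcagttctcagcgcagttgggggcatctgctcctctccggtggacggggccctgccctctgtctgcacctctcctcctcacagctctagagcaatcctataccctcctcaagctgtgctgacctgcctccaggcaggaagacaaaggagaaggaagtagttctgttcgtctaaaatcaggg

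The second window held 1 match to TGGGAA, which begins 145 bases before the start, and the first held 0. The RefSeq table gave 9 start windows for 7 of the 10 genes, and none for Hes1, Dtx4 and Esam. The motif, searched on both strands, was present in 3 of the 9 windows, the second of Maml2 and both of Rbpj, which overlap each other. It occurs in 25.6% of all 32851 windows of 300 bases. A match describes letters only, and the absence of one says nothing of binding.

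Among the receptors, Notch1 alone had groups that did not overlap, and none of the 4 passed the test. Notch1, the main receptor of T cell commitment, measured 8.34, 7.86 and 8.42 in WT replicates 1 to 3 and 8.79, 8.59 and 8.67 in KO replicates 1 to 3. Every KO array lay above every WT array. The means were 8.21 ± 0.30 and 8.69 ± 0.10 (SD, n = 3 each), a difference of 0.48 (SE 0.16) that did not pass the test over all genes (limma adjusted p = 0.193). Without WT replicate 2, the lowest array, the difference was 0.31. It passed under none of the 16 alternative settings, with adjusted p from 0.091 to 0.555.

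Notch2, the receptor of marginal zone B cells and ESAM-high dendritic cells, measured 8.04, 8.08 and 8.31 in WT and 8.09, 7.96 and 8.04 in KO. The groups overlapped, and the difference of -0.11 had a 95% interval from -0.38 to 0.16 (limma adjusted p = 0.743), so a fall as large as that of Maml2 lay outside the interval. Notch3, a receptor best known from vascular smooth muscle, measured 6.79, 6.75 and 6.73 in WT and 6.36, 6.76 and 6.65 in KO. KO replicate 1 was its lowest array, and the difference was -0.16 (interval -0.46 to 0.14, adjusted p = 0.641). Notch4, a mainly endothelial receptor, measured 5.54, 5.33 and 5.11 in WT and 5.29, 5.52 and 5.48 in KO, with a difference of 0.10 (interval -0.23 to 0.43, adjusted p = 0.818). A further 4 probe sets listed under both Notch4 and Sympk were left out because their signal has no single gene.

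Rbpj, which encodes the DNA-binding protein that all 4 receptors act through, measured 7.92, 8.07 and 8.25 in WT and 8.43, 8.41 and 8.81 in KO. The groups did not overlap. The means of 8.08 ± 0.17 and 8.55 ± 0.22 (SD, n = 3 each) differed by 0.47 (SE 0.15), which did not pass over all genes (limma adjusted p = 0.163). A dimmer second probe set, which shares no RefSeq transcript with Rbpj, differed by 0.06 (interval -0.22 to 0.35). Together with Notch1, Hes1 and Maml2, Rbpj made up the 4 of 10 members with an unadjusted p under 0.05, a limit that 16.1% of all genes met.

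Maml2 fell in KO on its brighter probe set. It measured 8.77, 8.61 and 8.85 in WT and 7.87, 8.11 and 7.74 in KO. All 3 KO arrays lay below all WT arrays, by at least 0.49 log2 units between the nearest pair. The means of 8.74 ± 0.13 and 7.91 ± 0.19 (SD, n = 3 each) differed by -0.84 (SE 0.14), a level 1.78-fold lower in KO (limma adjusted p = 0.0145, exact permutation p = 0.10, two-sided, the smallest that 3 against 3 arrays allow). The second probe set, which also shares a RefSeq transcript with Maml2, did not show this. It measured 6.52, 7.06 and 7.32 in WT and 6.36, 7.25 and 7.15 in KO, a difference of -0.05 with an interval from -0.72 to 0.62 (adjusted p = 0.965). With the mean of both probe sets the difference was -0.44 and was not called (adjusted p = 0.276). The call was also lost without WT replicate 1, WT replicate 3 or KO replicate 3, with adjusted p from 0.0508 to 0.0625, and in an unequal-variance test per gene (0.256), while the difference stayed between -0.94 and -0.75 in all fits that left out 1 array.

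**Figure D2:**
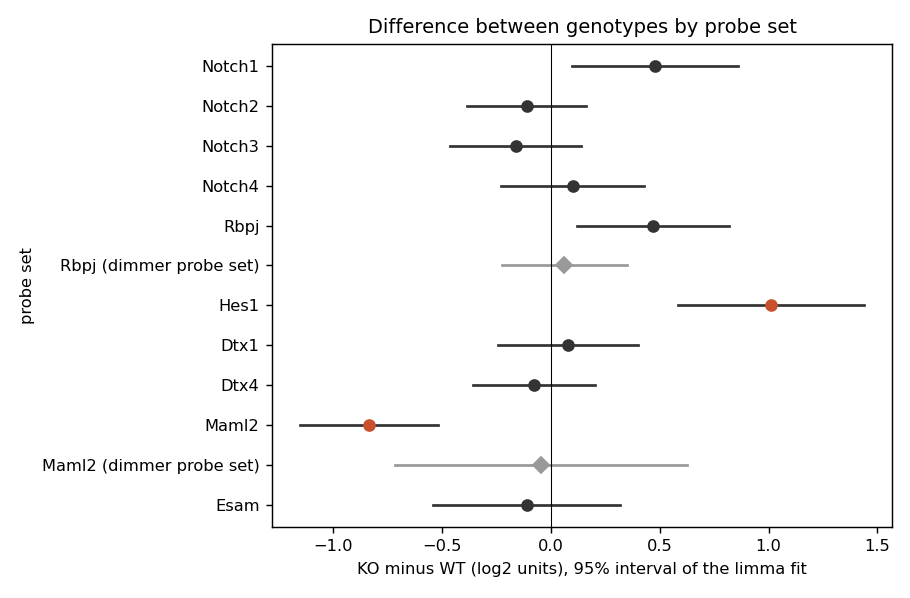
Difference KO minus WT in log2 units (horizontal axis) with its 95% interval from the limma fit for each probe set of the 10 genes; circles are the probe sets that stand for a gene, orange where called, and grey diamonds are the dimmer probe sets of Rbpj and Maml2. The brighter Maml2 probe set lies at -0.84 and the dimmer one at -0.05, whose wide interval, from -0.72 to 0.62, overlaps that of the brighter.

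Hes1, a repressor that is among the most direct targets of Notch, rose 2.01-fold in KO. It measured 6.01, 5.67 and 5.70 in WT and 7.14, 6.77 and 6.50 in KO. The lowest KO array lay 0.49 above the highest WT array. The means of 5.79 ± 0.19 and 6.80 ± 0.32 (SD, n = 3 each) differed by 1.01 (SE 0.18, limma adjusted p = 0.0237, exact permutation p = 0.10, two-sided). It was no longer called in fits without WT replicate 2, WT replicate 3 or KO replicate 2, with adjusted p from 0.0913 to 0.0968, and in an unequal-variance test per gene (0.344).

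Within each genotype Hes1 was highest in the array that also had the highest neutrophil levels. The mean log2 level of 11 neutrophil genes was 5.77, 4.96 and 4.62 in WT and 8.87, 5.94 and 5.36 in KO. All 11 had a higher mean in KO, with differences from 0.30 to 3.50 and a median of 1.07. Of the 11, 0 passed the test, beside 4.38% of all genes. Without KO replicate 1 the Hes1 difference was 0.84 and still called (adjusted p = 0.0218), and with both arrays numbered 1 left out it was 0.95 (adjusted p = 0.014). Red pulp macrophage genes had their highest levels in WT replicates 2 and 3, with a mean over 8 genes of 5.06, 6.60 and 6.50 in WT and 4.72 to 4.99 in KO. Of these, C1qb passed and was lower in KO, and the 8 differences ran from -2.46 to -0.15 with a median of -1.45. The part of these cell types in the Hes1 and Maml2 results was not tested. In sorted bulk samples, fewer cells of a type and less RNA per cell cannot be told apart.

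**Figure D3:**
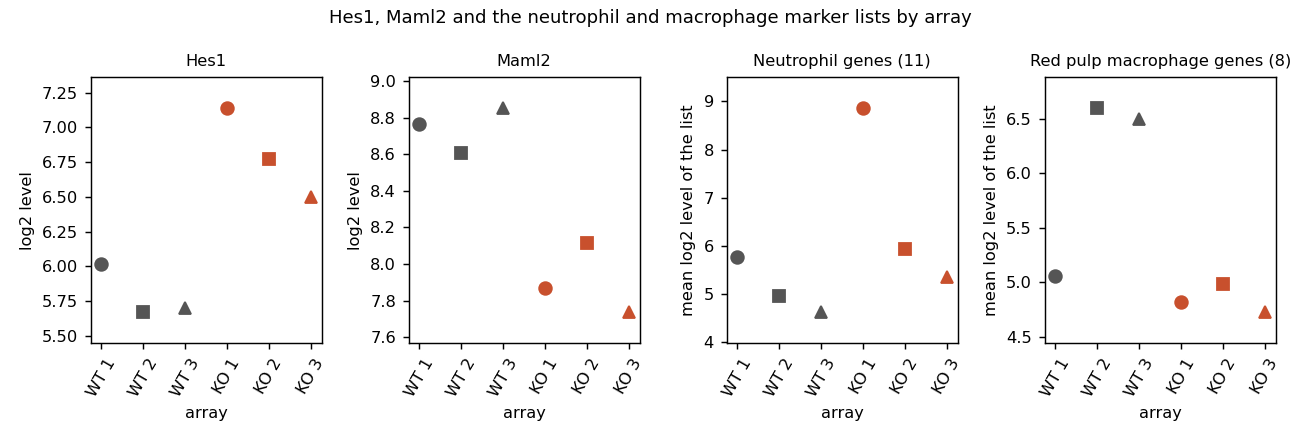
Log2 level of Hes1 and of Maml2 (brighter probe set), and the mean log2 level of 11 neutrophil and of 8 red pulp macrophage genes, in each of the 6 arrays (horizontal axis; grey WT, orange KO; each panel has its own vertical axis, which does not start at 0). KO replicate 1 has the highest neutrophil level, 8.87, and the highest Hes1 level, 7.14, while the 3 KO arrays lie above the WT arrays for Hes1 and below them for Maml2.

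The Deltex genes and Esam did not separate the genotypes. Dtx1 measured 6.11, 6.42 and 6.45 in WT and 6.54, 6.25 and 6.42 in KO, a difference of 0.08 (interval -0.24 to 0.40, limma adjusted p = 0.862). Dtx4, which is also known as a ligase acting on the kinase TBK1, measured 7.85, 7.59 and 7.54 in WT and 7.53, 7.58 and 7.64 in KO. Its difference of -0.08 had an interval from -0.36 to 0.20 (adjusted p = 0.844). Esam measured 5.08, 5.25 and 4.67 in WT and 4.70, 4.83 and 5.14 in KO, with a difference of -0.11 (interval -0.54 to 0.32, adjusted p = 0.851). For these 3 genes a change of 1 log2 unit, the size seen for Hes1, lay outside the interval.

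Other genes of the marker list written for ESAM-high dendritic cells did move. Whether these genes are particular to that subset was not tested. The marker counts here stand beside 2.30% higher and 2.08% lower over all genes. Of the 7 measured besides Esam, Itgax, the integrin CD11c, rose by 1.78, while Cd4 fell by 1.18, Clec10a, a lectin, by 2.62 and Cd209a, another lectin, by 3.73. Clec4a4, a surface lectin of the same list, lay between 2.35 and 3.02 in all arrays. The mean level of the 7 ran from 7.53 to 7.71 in WT and from 6.66 to 6.86 in KO. Of the 5 measured marginal zone B cell markers besides Dtx1, Cd9 rose by 0.92, and Cr2, a complement receptor, lay between 3.64 and 3.93. Myof, a ferlin family gene of the same list, differed by -0.53 with groups that did not overlap (adjusted p = 0.0576). Cd1d1, also of that list, differed by 0.60, again with groups that did not overlap (adjusted p = 0.0727). The mean level of the 5 ran from 4.77 to 4.89 in WT and from 4.97 to 5.12 in KO. Among 10 B cell markers Blk, Cd79a, Cd22 and Fcer2a rose and 0 fell, and 0 falls among 10 is close to the share over all genes. Ms4a1, which encodes CD20, lay between 3.13 and 3.91. The mean level of the B cell list ran from 5.32 to 5.47 in WT and from 5.93 to 6.20 in KO.

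Endothelial cells express Notch4 and Esam, and 13 further endothelial genes were measured. The marker counts of this paragraph also stand beside 2.30% higher and 2.08% lower over all genes. Their mean level ran from 5.52 to 5.65 in WT and from 5.35 to 5.56 in KO. Kdr, the receptor VEGFR2, fell by 2.57 and the other 12 passed in neither direction, with Tek, an angiopoietin receptor, between 3.71 and 3.93 in all arrays. Among 8 T cell genes Cd5 rose by 1.09, and the list's mean level overlapped between genotypes, from 5.06 to 5.32 in WT and from 5.06 to 5.43 in KO. Among 10 pDC markers 0 rose, and Ccr9, a gut-homing chemokine receptor, and Pacsin1, an endocytic adaptor, fell by 0.97 and 0.78. Ly6d, a surface marker shared with early lymphoid cells, differed by 0.42 with every KO array above every WT array (adjusted p = 0.142). Spib, Bst2 and Siglech differed by -0.74, -0.56 and -0.35, with every KO array below every WT array (adjusted p = 0.0949, 0.168 and 0.169). At an unadjusted p under 0.05, which 16.1% of all genes met, 1 of the 10 was higher and 5 were lower. The mean level of the pDC markers was 11.10 to 11.27 in WT and 10.85 to 10.94 in KO. The 4 erythroid genes measured had a mean level from 4.88 to 5.04 in WT and from 4.87 to 5.19 in KO, and none of these 4 passed limma's threshold (0 also had an unadjusted p under 0.05). The part of the cell types whose markers moved was not tested for any Notch gene.

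The rest of the pathway was described by 9 lists of 88 genes, of which 83 were measured. Of these, 11 were higher in KO and 0 lower by limma, beside 2.30% higher and 2.08% lower over all genes. At an unadjusted p under 0.05 there were 17 higher and 5 lower, beside 1511 higher and 1692 lower of all 19937 genes. Settings that called lower genes included array weights, with 2. Among bright genes alone, or with both arrays numbered 1 left out, 1 was called. An unequal-variance test per gene called 0 in either direction. Over all 19937 genes it called 2 higher and 2 lower, so a count of 0 is close to that share and says little of the 11. The median difference over the 83 was 0.04. Il2ra and Myc were known from earlier results on these data to be higher when the lists were written. The lists as a whole were also chosen with earlier results of these data known. The count of 11 to 0 therefore describes the lists and is not evidence about the pathway.

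**Figure D4:**
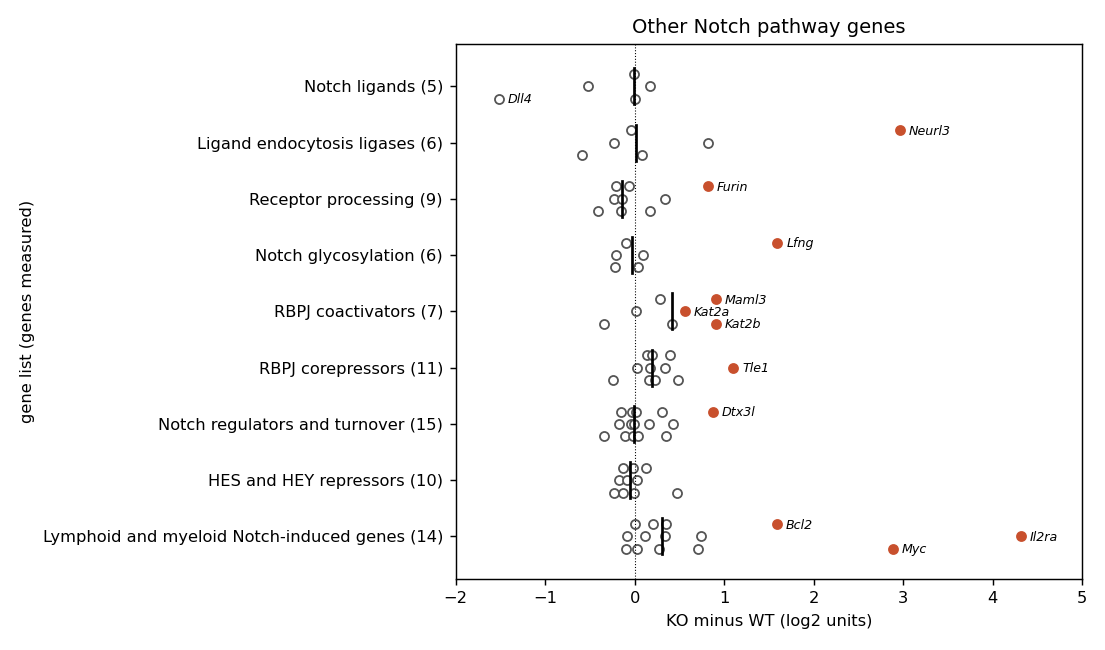
Difference KO minus WT in log2 units (horizontal axis) for each measured gene of 9 Notch pathway lists (rows; number of genes in brackets); each circle is a gene, filled orange where called by limma, and the vertical black bar is the list's median. The 11 called genes all lie above 0, from 0.56 for Kat2a to 4.32 for Il2ra, and Dll4 at -1.52 is the lowest and was not called.

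No ligand passed the test, but Dll4, a Delta-like ligand of high affinity for Notch1, had the largest difference of the 5. It measured 8.01, 8.05 and 9.01 in WT and 6.19, 7.08 and 7.24 in KO. The groups did not overlap, and the difference was -1.52 (SE 0.35, limma adjusted p = 0.0586). Settings that called it included array weights (adjusted p = 0.0373), bright genes alone (0.036) and the fit with both arrays numbered 1 left out (0.0411). Dll1, a second Delta-like ligand, measured 5.71 to 6.03 in WT and 5.25 to 5.40 in KO, a difference of -0.52 (adjusted p = 0.0619) that was called with array weights (-0.50, adjusted p = 0.0428). The other 3 ligands, Dll3, Jag1 and Jag2, differed by 0.0055, -0.0034 and 0.17.

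In the lists of genes written for the modification of ligands or receptors, 1 of each list rose, beside 2.30% of all genes. Neurl3, of the Neuralized family of ubiquitin ligases, measured 6.03, 6.14 and 5.58 in WT and 8.17, 8.93 and 9.53 in KO. It rose 7.78-fold (difference 2.96, SE 0.33, limma adjusted p = 0.00289), and the other 5 genes of the ligand endocytosis list passed in neither direction. Whether Neurl3 acts on Notch ligands in these cells was not tested. Lfng, a fringe glycosyltransferase that tunes which ligands a Notch receptor answers to, measured 6.41, 6.03 and 5.85 in WT and 7.36, 7.68 and 8.04 in KO. It rose 3.02-fold (difference 1.59, SE 0.21, adjusted p = 0.00641), while its relatives Mfng and Rfng differed by -0.09 and 0.10 and were not called. Furin, the convertase of the first receptor cut, rose by 0.81 (adjusted p = 0.0345). In fits that left out WT or KO replicate 2 or 3 it was no longer called, with adjusted p up to 0.127. The 8 other receptor processing genes, which are the gamma-secretase genes Psen2, Ncstn, Aph1a, Aph1b, Aph1c and Psenen and the metalloprotease genes Adam10 and Adam17, were not called.

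In the lists of RBPJ coactivators other than Maml2 and of corepressors, the genes that passed were higher in KO. Maml2 was lower on its brighter probe set. Of 7 coactivator genes besides Maml2, 3 rose, beside 2.30% of all genes, and the median was 0.41. Maml3, a paralog of Maml2, measured 6.50, 7.06 and 6.79 in WT and 7.67, 7.82 and 7.58 in KO, a rise of 0.91 (SE 0.16, limma adjusted p = 0.0202). The third paralog, Maml1, differed by 0.01. The 3 Mastermind-like genes thus differed by -0.84, 0.01 and 0.91 for Maml2, Maml1 and Maml3. The Maml2 value is that of its brighter probe set. Its second probe set differed by -0.05 and was not called, so the contrast with Maml3 rests on 1 Maml2 probe set. The acetyltransferase genes Kat2b and Kat2a rose by 0.91 and 0.56 (adjusted p = 0.00755 and 0.0354). Maml3 was no longer called in fits without WT replicate 3, KO replicate 2 or KO replicate 3 (adjusted p up to 0.0934), and Kat2a in fits without any one array other than KO replicate 1 (up to 0.152), with a variance trend (0.074) and with both arrays numbered 1 left out (0.0531). Of 11 corepressor genes 1 rose, beside 2.30% of all genes. This gene was Tle1, a Groucho family corepressor that also works with HES proteins. It measured 6.79, 6.78 and 6.85 in WT and 7.73, 7.81 and 8.18 in KO, a rise of 1.10 (SE 0.14, adjusted p = 0.00555).

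Of 15 regulators of Notch and its turnover, 1 rose, beside 2.30% of all genes. Dtx3l, a Deltex relative that acts with PARP9 in interferon responses, measured 7.33, 7.40 and 7.31 in WT and 8.08, 8.23 and 8.35 in KO. It rose by 0.87 (SE 0.11, limma adjusted p = 0.00603), whereas Dtx1, Dtx2, Dtx3 and Dtx4 differed by 0.08, -0.04, 0.30 and -0.08 and were not called. Nrarp, a direct Notch target that damps the pathway, lay between 4.28 and 4.71 and differed by 0.16 (adjusted p = 0.618).

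Of 10 HES, HEY and related repressors other than Hes1, 0 passed limma's threshold, a count close to the 4.38% of all genes that passed. At an unadjusted p under 0.05, which 16.1% of all genes met, there were also 0. Their median difference was -0.05. The largest differences were 0.48 for Bhlhe40, a circadian repressor with an interval from -0.47 to 1.42, and -0.23 for Hey2 (interval -0.59 to 0.14). The Bhlhe40 difference was 0.94 without KO replicate 1, and 0.21, 0.22 and 0.27 without WT replicate 1, KO replicate 2 and KO replicate 3, and none of these fits called it. Hes5, often read as a Notch target beside Hes1, lay between 6.98 and 7.18 in all arrays and differed by -0.01 (adjusted p = 0.976).

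Genes that Notch is known to induce in lymphoid or myeloid cells moved unevenly. Of 14 measured, Il2ra, Myc and Bcl2 rose and 0 fell by limma, beside 2.30% higher and 2.08% lower over all genes, so that 0 falls among 14 is close to the share over all genes. Il2ra, the interleukin 2 receptor alpha chain, measured 5.42 to 5.58 in WT and at least 9.54 in KO, and Myc, a growth regulator, 5.90 to 6.20 and 8.37 to 9.69. Bcl2, an inhibitor of cell death, measured 6.89, 6.95 and 6.56 in WT and 8.86, 8.18 and 8.12 in KO, a rise of 1.59 (SE 0.22, adjusted p = 0.00735). Among the genes not called, Ccnd1 and Gzmb differed by 0.70 and 0.75 with groups that did not overlap (limma adjusted p = 0.0818 and 0.0989). The T cell genes Ptcra, Gata3 and Bcl11b, which Notch1 induces in the thymus, differed by 0.03, 0.12 and 0.01. At an unadjusted p under 0.05, 5 of the 14 were higher and 0 lower, beside 1511 higher and 1692 lower of all 19937 genes.

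The genes whose levels followed Hes1 most closely over the 6 arrays, by Pearson's r, were Mgst2, a microsomal glutathione transferase (r = 0.997), Slfn8, a Schlafen family gene (0.993), and Pygm, a glycogen phosphorylase (0.991). Those most like Maml2 were Uap1l1 (0.998), Golgb1, which encodes the Golgi protein giantin (0.997), and Enpp4, an ectonucleotidase (0.995). These 6 arrays share 2 genotypes, so any gene that separates them is drawn to a high r, and r was ranked over all genes.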

How the data were processed

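The deposited table holds 34760 probe sets in 6 arrays as log2 levels. How the authors summarised and normalized these log2 levels is not given in the sources used here, and their range shows the scale. Per the labels' protocols, RNA was amplified with NuGen PICO SL and labelled with biotin. The platform annotation gave 1 gene symbol to 21640 probe sets, several to 1321 and did not list 11799. Probe sets with 1 symbol were used, and a gene was read from its brightest probe set by 6-array mean. Genotypes were compared with limma 3.58.1 in R 4.3.3 (lmFit, eBayes, no covariates), two-sided, adjusted over all genes. The fit was tested on simulated data with independent noise per gene. Those data lack variation shared between genes, so they are no check of the calls here. Levels are not compared between genes, since probe sets differ in brightness. Members and lists were chosen with earlier results of these data known. The rule named all members, up to 4 called genes of each pathway list, or up to 2 where none was called. It also named 3 genes most like each called member. Further pathway genes that were not called, among them other ligands and relatives of called genes, were picked by hand outside this rule. Marker genes named were chosen after their values were seen. Alternatives were quantile normalization, median centring, bright genes alone, the mean of probe sets, a variance trend, array weights, a replicate block, leaving out arrays, RefSeq-matched probe sets and an unequal-variance test. Promoter windows are from RefSeq (GRCm38.p6). Figures were drawn with matplotlib 3.10.9.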

Additional observations from a re-analysis of the deposited data

How the results depend on the processing

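The count of Notch genes higher in KO, 1, was 0 to 1 when single arrays were left out and 0 in the unequal-variance test, and the count lower, 1, was 0 to 1, 0 with the mean of probe sets and 0 in the unequal-variance test. Hes1 differed by 0.84 to 1.16 without single arrays, and at 1.01 was not called in the unequal-variance test (adjusted p = 0.344). Maml2 differed by -0.94 to -0.75 without single arrays, and was not called at -0.84 in the unequal-variance test (adjusted p = 0.256), at -0.44 with the mean of probe sets or at -0.047 on its other probe set. The other 8 Notch genes were called under 0 settings. Pathway genes higher in KO, 11, numbered 8 to 12 without single arrays and 0 in the unequal-variance test, which estimates each gene's spread from 3 arrays a group. Pathway genes lower, 0, numbered 1 among bright genes alone, 2 with array weights, 1 without both arrays numbered 1 and 1 with the replicate block. Over all genes, 459 were higher and 415 lower. Array weights gave 716 and 647, the replicate block 707 and 655, the fit without both arrays numbered 1 741 and 641, the unequal-variance test 2 and 2, and leaving out single arrays 249 to 780 and 202 to 719. The cause of these moves was not tested.

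The titles give both genotypes replicate numbers 1 to 3. Deviations from the group means of same-numbered arrays correlated at 0.38, 0.097 and 0.25, and those of differently numbered arrays at -0.31 to 0.20. KO replicates 1 and 3 correlated best with the WT array of their own number, but KO replicate 2 with WT replicate 3 (0.20). Because of KO replicate 2 the numbers were not taken as pairs. Whether same-numbered arrays were handled together was not tested. With the replicate block Hes1 (1.01, adjusted p = 0.00548) and Maml2 (-0.84, 0.0217) stayed called, and Dll4 was called (-1.52, 0.00567). Quantile normalization and median centring moved the median difference of all genes from -0.04 to -0.01 and -0.02 and changed no call among the 10. Notch4 and Esam were too dim for the fit of bright genes. What dim probe sets hide is not known, since no background level was used.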
